A study of Equus caballus with 4 samples.

Results

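The genes described here encode the nicotinic acetylcholine receptor of skeletal muscle and the proteins that gather it at the neuromuscular junction. A probe was taken as a member when the gene name printed beside it in the array files was *CHRNA1*, *CHRNB1*, *CHRND*, *CHRNG*, *CHRNE*, *AGRN*, *LRP4*, *MUSK*, *DOK7* or *RAPSN*. Of these 10 genes, 9 had a probe of that name, each of them 1 probe, so that the members were 9 of the 43603 probes other than controls. No probe carried the name *AGRN*. A probe that the files describe as agrin under another gene name, whose number is that of *AGRN* in the RefSeq gene table, is given apart and is not counted as a member.

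The mRNA was that of primary equine satellite cells (ESC), the muscle precursor cells, which had been isolated from the semitendinosus muscle of 6 healthy colts aged 6 months. Cells of both groups first spent 48 h in differentiation medium, which holds little serum and brings the cells to fuse. The HMB group then received HMB (β-hydroxy-β-methylbutyrate), which cells make from leucine, for 24 h, while the control group had the medium without it, and the RNA was that of day 3 of differentiation. Both groups were hybridised together on 4 two-colour arrays of 1 slide, HMB in Cy5 and control in Cy3 each time, giving *n* 4 in either group. The sample labels give the HMB dose as 50 µg with no volume, and the methods give it as 50 µM. A description field of the labels calls the treated cells GO-treated, whereas the titles and source names say HMB, which was used. Since the dyes were never exchanged, an effect of HMB and a preference of a probe for 1 dye cannot be told apart. Which colts were on which array, and whether both channels of an array held cells of the same colt, is not given in the sources used here, and the values below are ratios within an array. Preplating had been used to lessen the share of fibroblasts, and the labels name no nerve cells in the cultures.

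The muscle receptor is a ring of subunits around an ion channel: alpha, beta and delta are shared by its forms, gamma (*CHRNG*) belongs to the embryonic form, and epsilon (*CHRNE*) takes the place of gamma in the adult form as junctions mature. Agrin, which the nerve and also muscle make, binds LRP4 on the muscle membrane. LRP4 then activates the kinase MUSK with help from DOK7 inside the cell, and rapsyn (*RAPSN*) clusters the receptors. In muscle without a nerve, and in myotubes in culture, genes of the embryonic receptor are transcribed all along the fibre under control of the myogenic factors, which bind E-boxes in their promoters.

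Each member was read by a single 60-base probe, so that every value below rests on these bases. The probes of the subunits, of LRP4 and of MUSK are shown because the results on the receptor forms and on the agrin receptor and its kinase rest on them. Positions are those of the files, on the EquCab1 build, and the sequences are written in lower case throughout, in the direction in which the files print them.
CHRNA1, chr18:41938387-41938446: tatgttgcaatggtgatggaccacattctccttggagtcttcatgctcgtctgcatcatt
CHRNB1, chr11:49236420-49236986: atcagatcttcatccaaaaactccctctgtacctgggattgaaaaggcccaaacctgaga
CHRND, chr6:19641367-19642215: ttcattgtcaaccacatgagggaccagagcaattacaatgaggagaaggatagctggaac
CHRNG, chr6:19651906-19651965: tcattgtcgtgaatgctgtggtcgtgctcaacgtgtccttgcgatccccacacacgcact
CHRNE, chr11:48423240-48423299: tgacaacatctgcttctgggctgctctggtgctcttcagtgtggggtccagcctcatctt
LRP4, chr12:8746456-8746515: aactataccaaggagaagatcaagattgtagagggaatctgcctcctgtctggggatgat
MUSK, chr25:19672279-19672338: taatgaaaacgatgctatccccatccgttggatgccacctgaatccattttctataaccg

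The mapped ends of the *CHRNB1* and *CHRND* probes span 567 and 849 bases, and those of the *RAPSN* probe 65, more than their 60 bases, so that these probes do not map as 1 unbroken run. The *CHRND* and *CHRNG* probes lie on the same chromosome with 9.7 kb between them, and those of *CHRNE* and *CHRNB1* share chromosome 11 with 813.1 kb between them. No run of more than 8 bases was shared by any of the 45 pairs among the 9 members and the agrin probe. The share of G and C was 55.0 % in the *CHRNG* and *CHRNE* probes, 45.0 % in those of *CHRNA1*, *CHRNB1*, *CHRND* and *LRP4*, 43.3 % in that of *MUSK* and 70.0 % in that of *DOK7*, at chrUn:207861652-207861711. Whether a probe lies in an exon or an untranslated region was not determined, as no annotation of that build was used here.

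Values are log2 ratios, the deposited log10 ratio of Cy5 over Cy3 brought to the log2 scale, so that −1 stands for a halving in HMB-treated ESC and a positive value for higher mRNA. Testing was limited to the 27384 probes with 1 channel, the same on each of the 4 arrays, clearly brighter than background. Of the 9 members 8 were tested, and each of these was above background in both channels on every array. In the limma fit over all tested probes, with adjusted *P* at most 0.05 as the threshold, 5 of the 8 were lower in HMB-treated ESC (*CHRNA1*, *CHRND*, *CHRNG*, *LRP4* and *MUSK*) and 0 were higher. At an unadjusted *P* under 0.05 there were 6, and an ordinary t-test of each probe with the same adjustment called 0 in either direction, with 4 at an unadjusted *P* under 0.05. Without a filter on dim probes, or with channels taken as unpaired samples, limma called 3 members (*CHRNA1*, *CHRND* and *MUSK*). Of all tested probes 22.8 % passed the threshold, 11.6 % lower and 11.2 % higher. The median log2 ratio was −0.52 over the 8 members and 0.02 over all tested probes. Among all calls 49.1 % were higher, and under the alternatives between 29.9 % with channels unpaired and 59.2 % with median centring in place of lowess. The members' lower values thus stand beside many calls in both directions on these arrays. The members, too, were chosen with earlier results of these data known. A fall of mRNA in each cell and a smaller share of cells that make it cannot be told apart in such cultures.

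**Figure D1:**
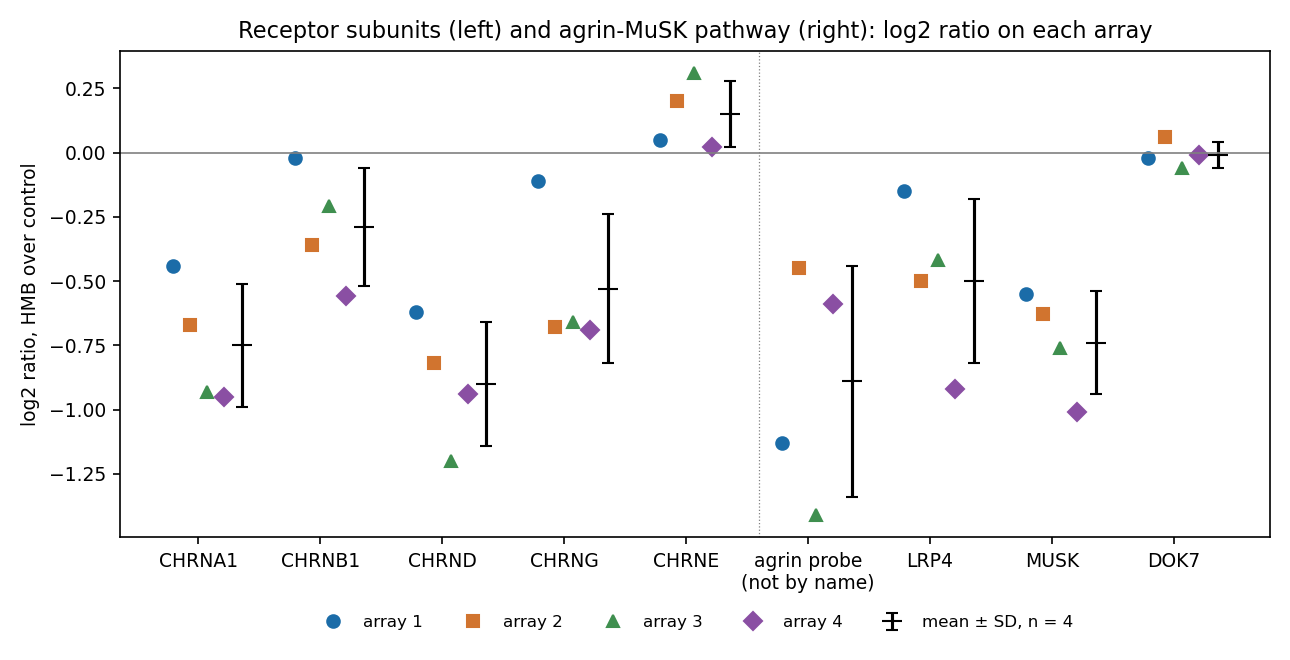
Log2 ratio of HMB over control (vertical axis) on each of the 4 arrays for the 8 tested members and the agrin probe, which is not a member, with the mean ± SD beside them. *CHRNA1*, *CHRND* and *MUSK* lie below 0 on every array, with means of −0.75, −0.90 and −0.74, while *CHRNE* lies above 0 on every array with a mean of 0.15, and *DOK7* lies around 0 with a mean of −0.01.

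Among the shared subunits, *CHRNA1* and *CHRND* fell in HMB-treated ESC, whereas *CHRNB1* did not pass the threshold. *CHRNA1* encodes the alpha subunit, which holds most of the site for acetylcholine. Its processed signal in control cells was 6869.7, 7440.6, 8439.1 and 8448.5 on arrays 1 to 4. In HMB-treated cells it was 5051.8, 4663.3, 4417.1 and 4369.8. All 4 control signals lay above all 4 signals of HMB-treated cells. The log2 ratios of −0.44, −0.67, −0.93 and −0.95 gave a mean of −0.75 ± 0.24 (SD, *n* 4), or 59.4 % of control (limma, adjusted *P*=0.00573, 95 % CI −0.99, −0.51). Only 2.8 % of the tested probes had a lower mean.

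*CHRND* encodes the delta subunit and had the lowest mean of the 8 tested members. Its signal was 807.1, 913.1, 934.4 and 883.5 in control cells. With HMB it was 524.1, 517.5, 405.6 and 459.5, again with no overlap between the groups. The log2 ratios were −0.62, −0.82, −1.20 and −0.94, with a mean of −0.90 ± 0.24 (SD, *n* 4), or 53.7 % of control (limma, adjusted *P*=0.00375, 95 % CI −1.14, −0.65). *CHRNA1* and *CHRND* passed the threshold without each array in turn.

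*CHRNB1*, the beta subunit, gave a dim spot, with signals of 48 to 62.3 in control and 37.3 to 61.3 in HMB-treated cells, so that the groups overlapped. Its log2 ratios of −0.02, −0.36, −0.21 and −0.56 were below 0 on every array, closest to it on array 1. The mean of −0.29 ± 0.23 (SD, *n* 4; 95 % CI −0.52, −0.06) did not pass the threshold (limma, adjusted *P*=0.0768). Without array 1 it did, at a log2 ratio of −0.38 (limma, adjusted *P*=0.0499), and it did with median centring in place of lowess, at −0.39 (limma, adjusted *P*=0.0387). The range of adjusted *P* for *CHRNB1* over its 15 alternatives was 0.0387 to 0.322.

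**Figure D2:**
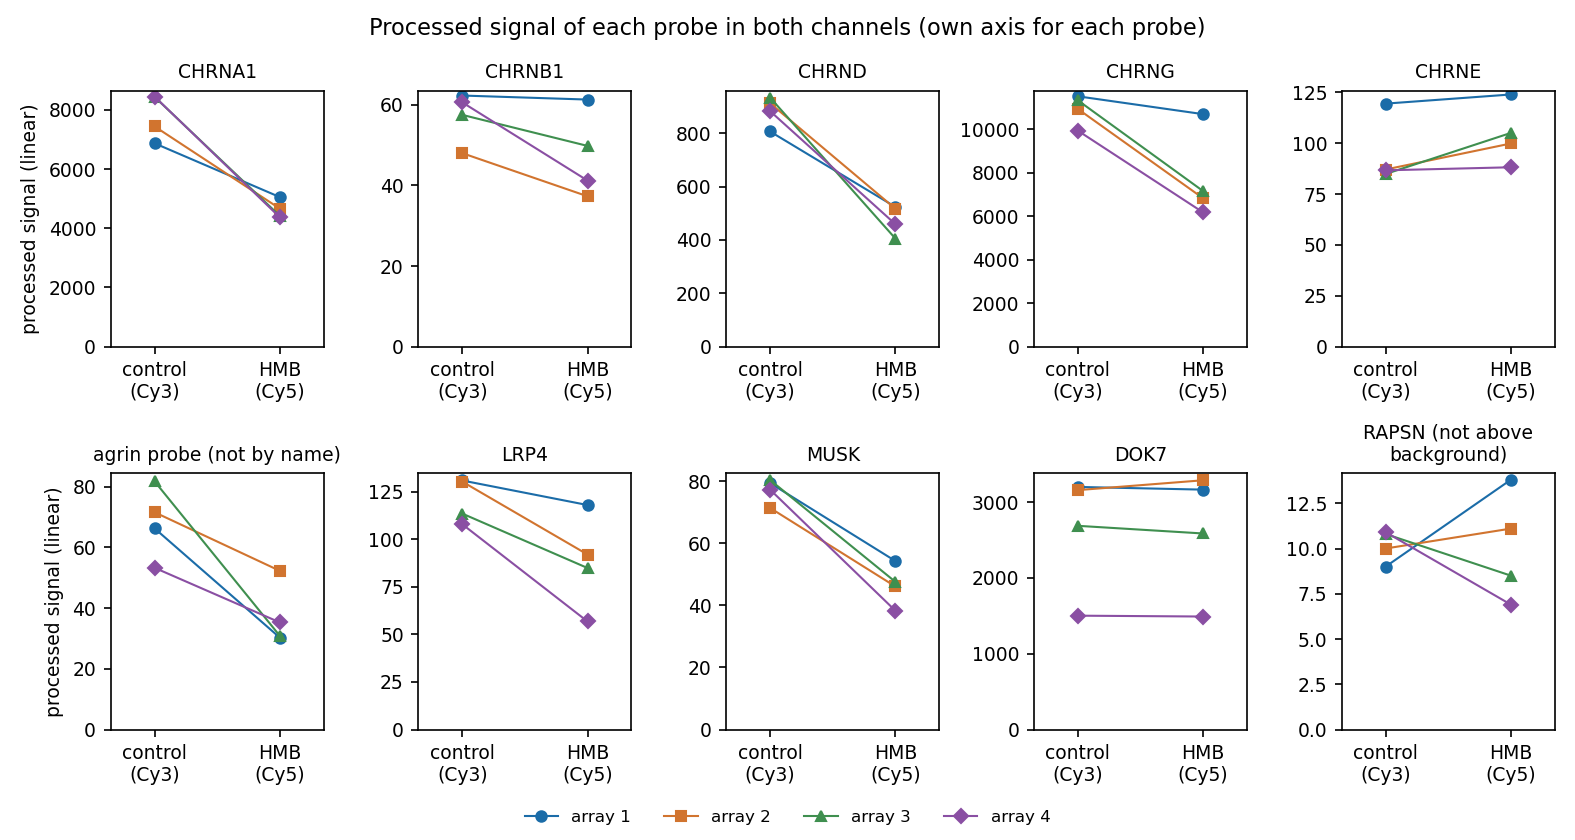
Processed signal (vertical axes, linear scale from 0, each probe on an axis of its own) in control cells (Cy3) and HMB-treated cells (Cy5), with a line joining the 2 channels of each array. The lines of *CHRNA1* fall from between 6869.7 and 8448.5 to between 4369.8 and 5051.8, and those of *DOK7* are nearly level on each array although the arrays differ, from 1502.6 to 3201.0 in control cells.

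The embryonic and the adult subunit had mean ratios of opposite sign, of which that of the embryonic one passed the threshold. *CHRNG* signals in control cells were 11508.6, 10927.2, 11322.4 and 9928.5. In HMB-treated cells they were 10687.8, 6820.1, 7149.8 and 6169.5, so that array 1 alone reached into the range of the controls. Log2 ratios were −0.11, −0.68, −0.66 and −0.69, array 1 lying apart from a close group of the other arrays. *CHRNG* fell, with a mean log2 ratio of −0.53 ± 0.29 (SD, *n* 4), or 69.1 % of control (limma, adjusted *P*=0.0215, 95 % CI −0.81, −0.26). The call depended on the arrays kept: the adjusted *P* of limma was 0.00966 without array 1 but 0.0826, 0.0839 and 0.0614 without arrays 2, 3 and 4. Median centring without lowess gave −0.34 and kept the call.

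*CHRNE* gave signals of 119.5, 87.1, 84.9 and 86.7 in control cells. With HMB they were 124.0, 99.9, 105.1 and 88.2, and the groups overlapped because array 1 was high in both channels. The log2 ratios of 0.05, 0.20, 0.31 and 0.02 were above 0 on each array. Their mean of 0.15 ± 0.13 (SD, *n* 4; 95 % CI −0.03, 0.32) did not pass the threshold (limma, adjusted *P*=0.19). It lay between 0.09 and 0.19 under the 15 alternatives, never past the threshold. The interval of *CHRNE* holds both no change and a modest rise.

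The difference between both subunits was taken within each array, *CHRNG* minus *CHRNE*. It was −0.16, −0.88, −0.97 and −0.71 on arrays 1 to 4, negative on each. The mean was −0.68 ± 0.36 (SD, *n* 4). The exact two-sided sign-flip permutation test over arrays gave the smallest *P* that 4 arrays allow, which is above 0.05, so that the difference could not pass that threshold here. Without array 1 the mean difference was −0.85 ± 0.13, and without array 3 it was −0.58 ± 0.37 (SD, *n* 3). With median centring without lowess it was −0.47 ± 0.27 (SD, *n* 4). The difference is one of ratios, and signals of the *CHRNG* and *CHRNE* probes were not compared with each other, as different probes bind with different strength.

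**Figure D3:**
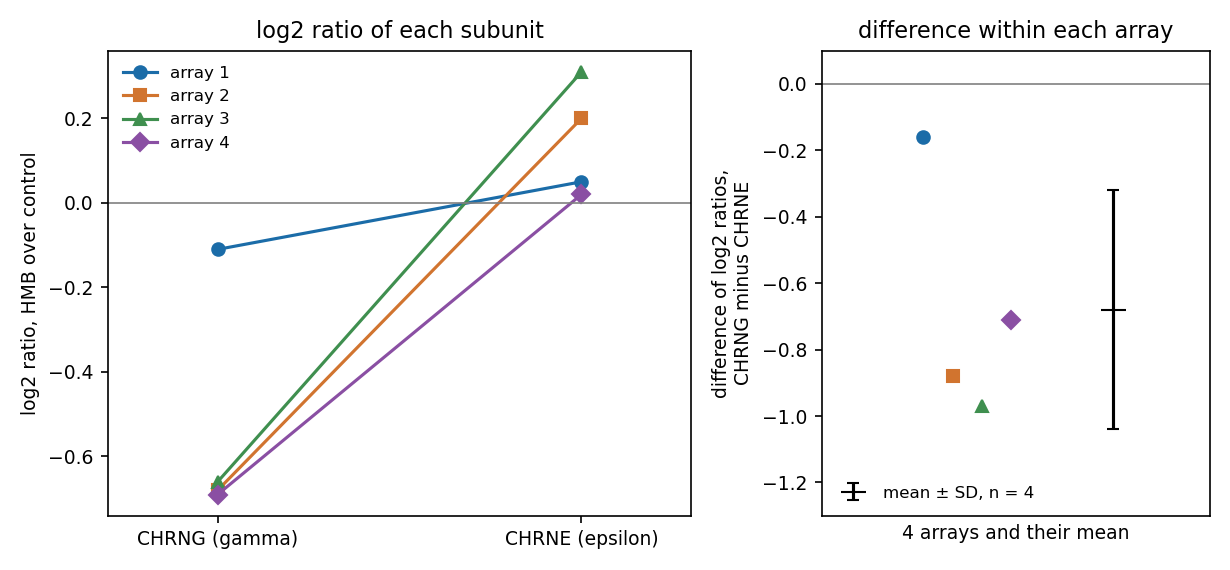
Left, log2 ratio of HMB over control for *CHRNG* and *CHRNE*, with a line for each array. Right, the difference *CHRNG* minus *CHRNE* on each array and its mean ± SD (−0.68 ± 0.36, *n* 4), where array 1 at −0.16 is nearest to 0 and array 3 at −0.97 is farthest.

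Of the proteins that cluster the receptor, *LRP4* and *MUSK* fell, *DOK7* did not pass the threshold and *RAPSN* was not measurable. *MUSK*, the receptor kinase, gave signals of 79.4, 71.4, 80.4 and 77.3 in control cells. With HMB they were 54.3, 46.1, 47.6 and 38.3, below every control signal. The log2 ratios of −0.55, −0.63, −0.76 and −1.01 gave a mean of −0.74 ± 0.20 (SD, *n* 4; limma, adjusted *P*=0.00442, 95 % CI −0.95, −0.52). *MUSK* passed the threshold without each array in turn. Normexp background correction with loess gave −0.45 for *MUSK*, a smaller change that kept the call.

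*LRP4*, the agrin receptor, gave 130.9, 130.3, 113.5 and 107.9 in control cells. In HMB-treated cells its signals were 118.0, 92.0, 84.9 and 56.8, array 1 again lying within the control range. The log2 ratios were −0.15, −0.50, −0.42 and −0.92, the widest spread of the 8 tested members, with a mean of −0.50 ± 0.32 (SD, *n* 4), or 70.8 % of control (limma, adjusted *P*=0.034, 95 % CI −0.80, −0.20). The call was lost without array 2 (0.102), array 3 (0.0904) and array 4 (0.0507), as adjusted *P* of limma, and held without array 1 (0.0328). With normexp and loess *LRP4* was at −0.32, still past the threshold.

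*DOK7*, the cytoplasmic activator of MUSK, gave 3201.0, 3159.1, 2688.0 and 1502.6 in control cells. With HMB it gave 3165.4, 3289.0, 2586.8 and 1491.3, following the control signal of each array. Its log2 ratios of −0.02, 0.06, −0.06 and −0.01 had the smallest spread of the 8 tested members, with a mean of −0.01 ± 0.05 (SD, *n* 4; limma, adjusted *P*=0.949, 95 % CI −0.15, 0.14). The sign of so small a mean turned with the processing, to 0.07 with median centring without lowess and to 0.01 without array 3. The interval leaves room for a change of that size in either direction and none as large as that of *MUSK*.

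*RAPSN*, the scaffold, was not well above background in either channel on any array, with signals of 9.0 to 10.9 in control and 6.9 to 13.8 in HMB-treated cells. Its probe, at chr12:9182800-9182864, was therefore not tested and no ratio is given. The *LRP4* probe lies 436.3 kb from it on the same chromosome and was above background throughout.

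The agrin probe, at chrUn:254036230-254036289, gave 66.3, 71.6, 81.8 and 53.3 in control cells. With HMB it gave 30.3, 52.3, 30.9 and 35.3, with no overlap. The log2 ratios of −1.13, −0.45, −1.41 and −0.59 had a mean of −0.89 ± 0.45 (SD, *n* 4; limma, adjusted *P*=0.0147, 95 % CI −1.29, −0.50). Here arrays 1 and 3 were the lowest, unlike *LRP4*, for which array 4 was. Without array 1 the adjusted *P* of limma was 0.0539 at a log2 ratio of −0.82, and the call was also lost without a filter on dim probes and with the t-test. Over all 15 alternatives the log2 ratio of the agrin probe ranged from −1.04 to −0.35, the value nearest to 0 being that of normexp.

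Ordered by mean log2 ratio, the tested members ran from *CHRND* (−0.90) through *CHRNA1* (−0.75), *MUSK* (−0.74), *CHRNG* (−0.53), *LRP4* (−0.50), *CHRNB1* (−0.29) and *DOK7* (−0.01) to *CHRNE* (0.15). Of the 28 pairs, 22 kept the same order on all 4 arrays. *CHRND* and *CHRNA1* differed by 0.15 ± 0.12 (SD, *n* 4) in log2 ratio, with array 4 the other way round. *CHRNA1* minus *MUSK* was −0.01 ± 0.13 and *CHRNG* minus *LRP4* was −0.03 ± 0.22, each with 2 arrays on either side of 0, so that these neighbours cannot be told apart. *CHRNA1* minus *CHRNB1*, in contrast, was −0.46 ± 0.18, negative on every array, although both encode subunits of each receptor. *MUSK* minus *DOK7* was −0.73 ± 0.20 and also negative on every array. These pairs were looked at after the values were seen and were not tested.

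The arrays differed in how far the members moved. The median log2 ratio of the 8 tested members was −0.13, −0.57, −0.54 and −0.81 on arrays 1 to 4, whereas that of all tested probes was 0.01, 0.01, 0.03 and 0.02. Array 1 was the one nearest to 0 for *CHRNA1*, *CHRNB1*, *CHRND*, *CHRNG*, *LRP4* and *MUSK*, but not for *CHRNE* or the agrin probe. Taken over tested probes, a description only since probes are no replicates, the log2 ratios of array 1 correlated with the mean of the other arrays at 0.69, against 0.82, 0.81 and 0.73 for arrays 2, 3 and 4.

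The genes with profiles most like those of *CHRNA1* and *CHRNG* were found by the Euclidean distance between log2 ratios over the 4 arrays, among 9721 other genes with a symbol. Nearest to *CHRNA1* were *MYL11* (distance 0.12), a myosin light chain of fast muscle, *JAM2* (0.12), an adhesion protein, *TIMP2* (0.14), an inhibitor of metalloproteinases, *CIDEA* (0.14), a lipid droplet protein, and *SHISA2* (0.14). *MUSK* was number 17 in that order at 0.22, *CHRND* number 80 and *CHRNG* number 219, whereas *CHRNE* was number 7004. Nearest to *CHRNG* were *SYNPO2* (0.12), an actin-binding protein, *ATF3* (0.13), a stress-response transcription factor, *DAPK3* (0.14), a kinase, *SGCA* (0.15), a sarcoglycan of the muscle membrane, and *MYOM1* (0.16), of the M band. Their mean log2 ratios lay between −0.47 and −0.58, and those of the genes nearest to *CHRNA1* between −0.70 and −0.79. *MYL11* and *TIMP2* turned to 0.21 and 0.16 with median centring without lowess, a setting under which *CHRNA1* stayed at −0.61. With normexp *MYL11* and *TIMP2* were at −0.44 and −0.43, and *ATF3*, which was not above background in both channels on every array, was at −0.16 and lost its call (limma, adjusted *P*=0.0697), as it did with the array as a block (0.558). Of the genes nearest to *CHRNG*, all 5 lost their call without array 2 and without array 3, and *ATF3* and *DAPK3* also without array 4 (0.0878 and 0.0938).

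Other genes, of the junction, of its regulation and of muscle differentiation, were taken from lists, with the brightest tested probe of each gene. Outside the members and the agrin probe, 73 genes of the 12 such lists were tested, muscle differentiation among them. Of these genes 31 were lower and 3 higher, where 11.6 % of all tested probes were lower and 11.2 % higher. The lists were chosen with earlier results of these data known. They hold *MYF5*, *MEF2A*, *MEF2C* and *TRIM63*, which the paper reports as lower from the same arrays, so that this count is no independent evidence. Their median log2 ratio was −0.26 against 0.02 for all tested probes. The calls of 13 of these 34 held without each array in turn, and without arrays 2 and 3 their number was 17 and 13. Without a filter on dim probes it was 8, with channels unpaired 18 and with the t-test 1. The receptor subunit list itself had a median of −0.53, with 3 of 5 lower. The core list of agrin, *LRP4*, *MUSK*, *DOK7* and *RAPSN*, taken here with the agrin probe, had a median of −0.62, with 3 of 4 tested genes lower.

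Of 18 tested effectors downstream of MUSK 2 were lower and 2 higher, where 22.8 % of all tested probes were called, and the median was −0.05. Limma called 7 of them with the array as a block, and 1 with channels unpaired or a minimum of 1.3-fold. *MACF1*, a linker between microtubules and the receptor clusters, fell (−0.49 ± 0.05, SD, *n* 4; limma, adjusted *P*=0.00435), a call that held without each array, and *CTNNB1*, which encodes beta-catenin, was at −0.26 (0.0483) but at 0.17 with median centring without lowess, and 3 of its 5 tested probes were called. *PAK1*, a kinase that acts on actin, rose by 0.32 (0.0172), as did *PTPN11*, the phosphatase SHP2, by 0.25 (0.0356). Without array 2 or array 3 only *MACF1* of these 4 passed the threshold. *PTPN11* did not pass with any array left out (limma, adjusted *P*=0.0629, 0.183, 0.0967 and 0.0643 without arrays 1 to 4), nor with normexp (0.0653) or median centring (0.064).

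Of the regulators of receptor genes 8 of 12 tested were lower and 0 higher, with a median of −0.33. *MYF5*, a myogenic factor of the undifferentiated cell, had a mean of −1.01 ± 0.18 (SD, *n* 4; limma, adjusted *P*=0.00157), and was the 1 call of the list that held without each array. *MEF2C* (−0.56), *MYOD1* (−0.46), *SIX4* (−0.42) and *MYOG* (−0.42) came next, and *MEF2A*, *TCF12* and *MYF6* were also lower. The number of calls was 0 with the t-test, 2 with channels unpaired, without a filter on dim probes or without array 2, 1 without array 3 and 5 without array 4, and *TCF12* lost its call with median centring without lowess (limma, adjusted *P*=0.0553), as *MYF6* did with the array as a block (0.0575). Of the 2 *MYOD1* probes the dimmer, at −0.20, was not called. The denervation list holds genes that rise in muscle when its nerve is cut, among them *CHRNA1* and *CHRNG*. It had 6 of 7 tested genes lower and a median of −0.61, with *NCAM1* (−0.90), *TRIM63* (−0.87) and *GADD45A* (−0.61) beside *MYOG* and these subunits, and 3 calls without array 3, with channels unpaired or without a filter on dim probes, and 0 with the t-test.

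The synaptic basal lamina had 2 of 7 tested genes lower, *COL13A1* (−0.43, SD 0.24), a collagen of the muscle membrane, and *HSPG2* (−0.33, SD 0.19), which encodes perlecan. Of all tested probes 11.6 % were lower and 11.2 % higher, and the counts of this and the following short lists were not tested against these shares. *COL13A1* was not called with any array left out, with an adjusted *P* of limma from 0.0547 to 0.0723, and *HSPG2* was called only without array 1 (0.0474). With the array as a block *HSPG2* lost its call (0.119). The number of calls in this list was 4 with normexp or an intensity trend, and 3 with median centring without lowess or the array as a block. It was 0 without a filter on dim probes, with the t-test and without array 2, 3 or 4. With normexp *COL13A1* was at −0.25 and kept its call, and 4 of its 8 tested probes were called. *ACHE*, the acetylcholinesterase gene, had log2 ratios of 0.09, −0.74, −0.72 and −0.91, array 1 being the high one, and their mean was −0.57 ± 0.45 (SD, *n* 4) that missed the threshold (limma, adjusted *P*=0.0518) and passed it without array 1 (0.00974). *ACHE* also passed with normexp (limma, adjusted *P*=0.0428), median centring without lowess (0.0408), an intensity trend (0.0375) and the array as a block (0.0236). With both channels required to be above background it passed at 0.0484. Without array 2, 3 or 4 it did not pass (0.154, 0.162 and 0.139). Of the dystroglycan scaffold 2 of 5 tested genes were lower, *SNTB1* (−0.59 ± 0.20), a syntrophin, which held without each array, and *DAG1* (−0.57 ± 0.30), dystroglycan, which did not hold without array 2, 3 or 4 (0.0702, 0.0776 and 0.0581). Without a filter on dim probes both *SNTB1* and *DAG1* lost their call (limma, adjusted *P*=0.0516 and 0.0973). The median of the dystroglycan list was 0.04. Of the genes for receptor glycosylation 1 of 4 was higher, *GMPPB* (0.35 ± 0.14), an enzyme of mannose activation, not without array 1 or 3 (0.0556 and 0.0896), and the median was −0.07.

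Neither the neuregulin arm nor the neuronal subunits held a call, where 22.8 % of all tested probes were called, 11.6 % lower and 11.2 % higher. The neuregulin arm had 0 of 3 tested genes called by limma and 0 by the t-test, 1 at an unadjusted *P* under 0.05, and a median of 0.09. With the array as a block limma called 1 of the 3. Its receptor *ERBB4* was not well above background on any array. The neuronal nicotinic subunits had 0 of 4 tested genes called by either, 1 at an unadjusted *P* under 0.05, and a median of 0.09, while 5 further subunits were not above background on all arrays. Of the membrane channels 1 of 2 tested was lower, *KCNJ2* (−0.54 ± 0.24), a potassium channel, with a median of −0.47, and it held without each array. With normexp *KCNJ2* was at −0.24, and without a filter on dim probes it lost its call (limma, adjusted *P*=0.0759). With the array as a block both tested channel genes were called.

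**Figure D4:**
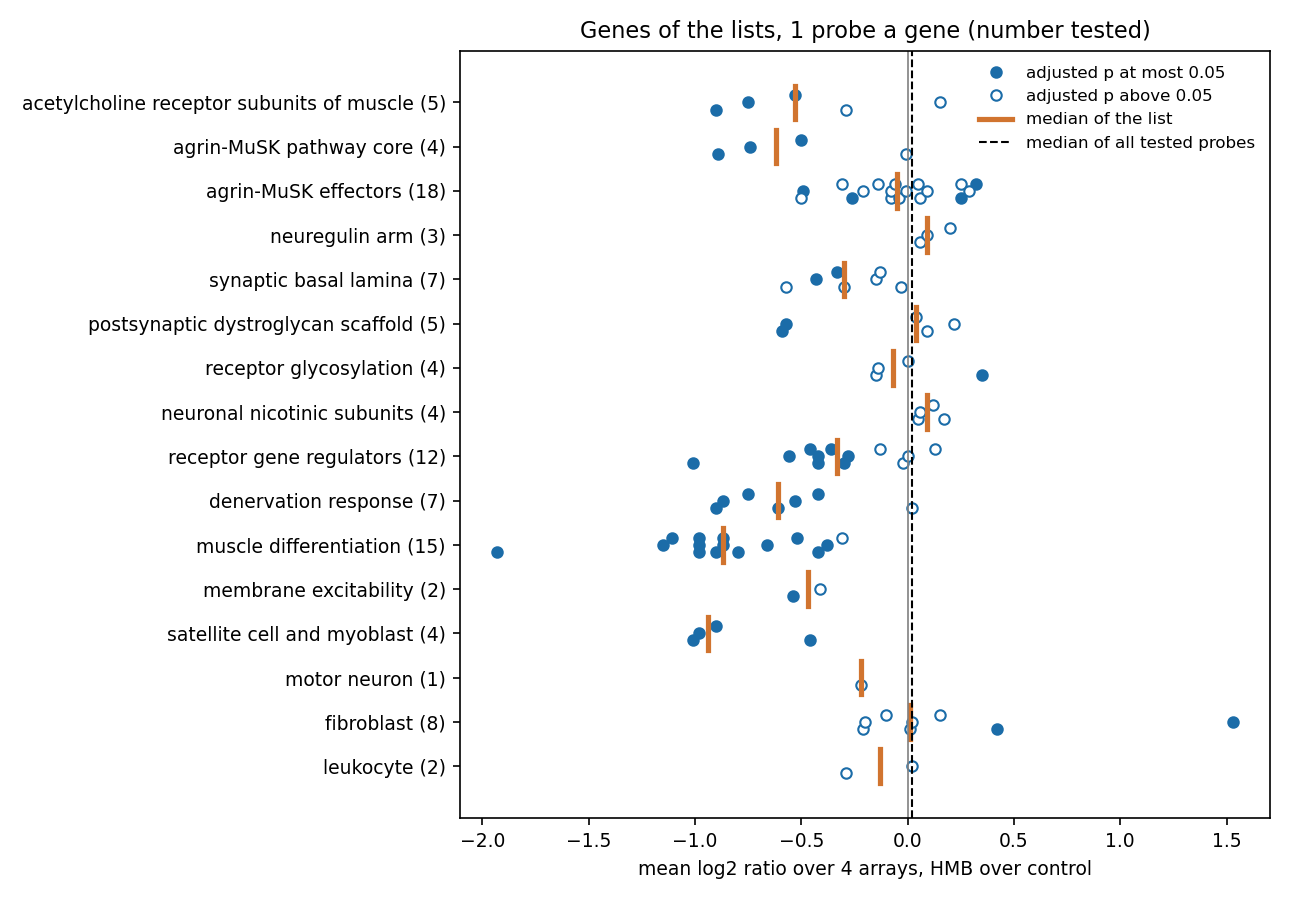
Mean log2 ratio over the 4 arrays (horizontal axis) of each tested gene in the lists, filled where adjusted *P* was at most 0.05, with the median of each list as an orange bar and that of all tested probes as a dashed line (0.02). The medians shown are −0.53 for the receptor subunits, −0.33 for the receptor gene regulators, −0.87 for muscle differentiation and 0.09 for the neuronal subunits.

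Markers of muscle differentiation were mostly lower, as 5 of the members were. Of 15 tested genes 14 were lower, with a median of −0.87 and medians of −0.27, −0.80, −1.05 and −1.31 on arrays 1 to 4, array 1 again being nearest to 0. *MYH8*, the perinatal myosin heavy chain, had the lowest mean (−1.93 ± 0.36, SD, *n* 4; limma, adjusted *P*=0.00113), followed by *MYH7* (−1.15 ± 0.30), *MYH3* (−1.11 ± 0.47), and *DES*, *ACTA1* and *TNNC1* at −0.98 each. With median centring without lowess *MYH7* was at −0.54, *DES* at −0.62, *TNNC1* at −0.50 and *ACTA1* at −0.38, and *MYH3*, at −0.37, lost its call (limma, adjusted *P*=0.0522), while *MYH8* stayed at −1.92. *MYL4*, *NEB*, *TNNT3*, *CKM*, *MYL1*, *ENO3* and *MYOG* were also lower. *CAV3* did not pass (−0.31; limma, adjusted *P*=0.0761) and did without array 1 (0.0463) and with the array as a block (0.0304). *CAV3*, *ACHE* and *SYP* are named although not called, a choice made after their values were seen. *ACTC1*, at −0.38, was at 0.69 with median centring without lowess, a call in the other direction (limma, adjusted *P*=0.00111), and at 0.01 with normexp, and its call was lost without array 2, 3 or 4 (0.136, 0.161 and 0.113). The number of calls was 2 without a filter on dim probes and 0 with the t-test, 9 with channels unpaired, 8 without array 2 and 7 without array 3. With median centring without lowess it was 13, that of *ACTC1* being higher, and *MYL4* went from −0.90 to −0.34. The median of −0.87 thus holds for the ratios after lowess. The part of the muscle differentiation genes in the members' values was not tested.

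Marker lists of cell types gave these values. Of the markers of satellite cells and myoblasts 4 of 4 tested were lower (*MYF5*, *DES*, *NCAM1* and *MYOD1*, the last on 1 of its 2 probes; median −0.94), with *PAX3* not above background on all arrays. All 4 also stand in the lists above, *DES* among the muscle differentiation genes. This list therefore adds no further gene and cannot tell precursor cells from differentiation. The number of calls was 3 without array 2, 3 or 4, 2 without a filter on dim probes and 0 with the t-test. Their brightest probe was that of *DES*, with a mean signal of 28300.7 in control and 14609.2 in HMB-treated cells. The summed signal of the list, mostly that of *DES*, was 33491, 32652, 35352 and 37017 in control and 23936, 17234, 15505 and 15620 in HMB-treated cells. Of 8 tested fibroblast markers 2 were higher, where 11.2 % of all tested probes were. *PDGFRA* (1.53 ± 0.47, SD, *n* 4; limma, adjusted *P*=0.00358) held without each array and was at 0.89 with normexp. *FAP* (0.42 ± 0.18) did not hold without array 1, 2 or 3 (limma, adjusted *P*=0.0532, 0.0806 and 0.0752). The median of the list was 0.01, and on the arrays it was 0.33, −0.06, −0.07 and −0.07, with 6 calls under median centring without lowess. Its brightest probe was that of *COL1A2*, which was at −0.20 and not called. Of the 9 tested probes of *COL1A2* 2 were called, as lower, and the means of all 9 lay between −0.59 and −0.20. *DCN*, not called at 0.15, had 1 of its 2 probes called, at 0.39. The summed signal of the fibroblast list was 326608, 309368, 337712 and 429601 in control and 393068, 284608, 308359 and 309474 in HMB-treated cells. The part of either list in the members' values was not tested. Nerve and glial markers were mostly at background: of 7 motor neuron markers with a probe only *SYP* was tested, without passing (−0.22, limma, adjusted *P*=0.0791), although it passed with median centring without lowess (−0.37, 0.0102), and all 6 Schwann cell and all 4 endothelial markers with a probe were not above background on all arrays. The 2 tested leukocyte markers did not pass either, with a median of −0.13, 1 of them at an unadjusted *P* under 0.05 and 0 by the t-test.

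**Figure D5:**
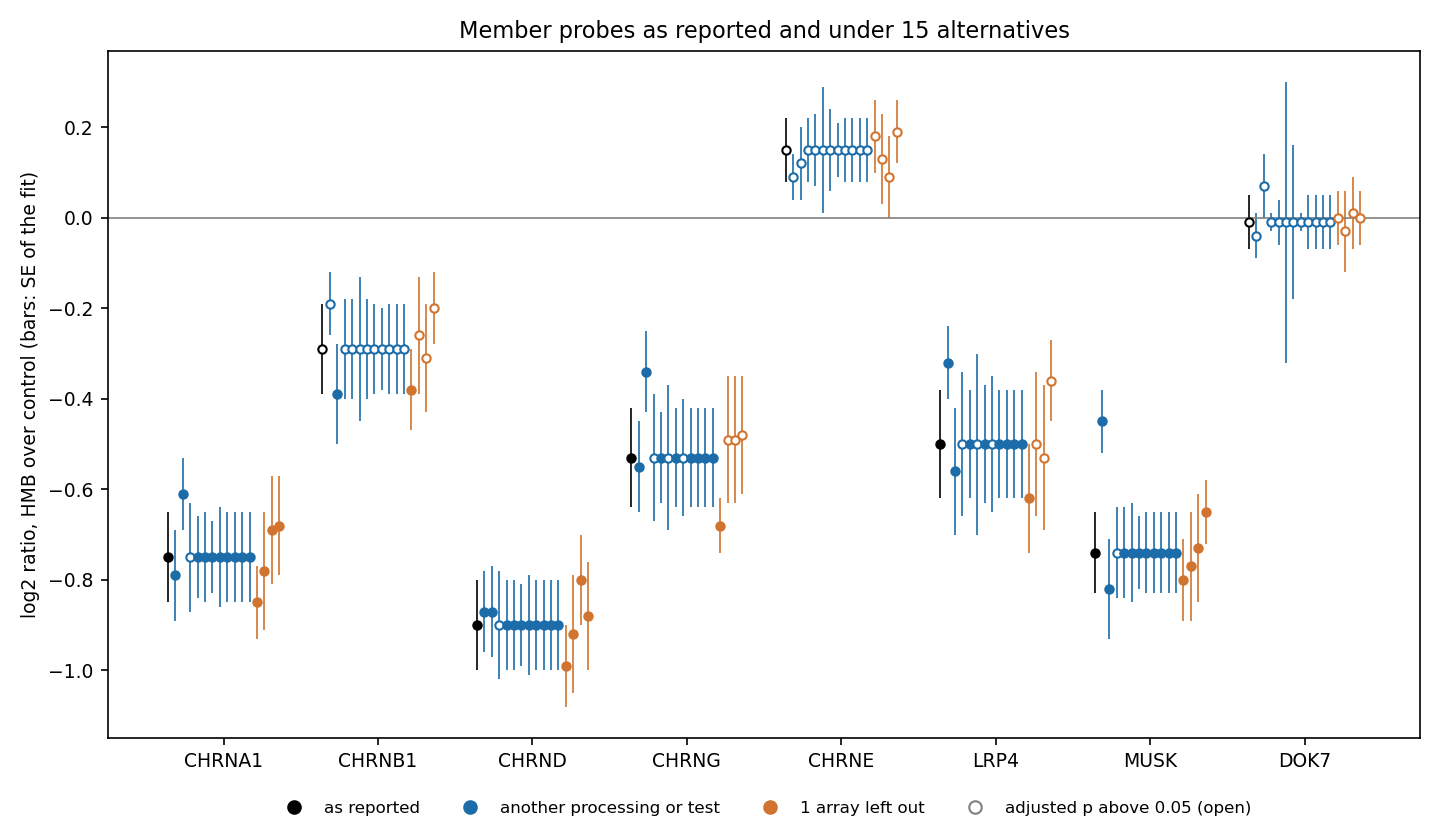
Log2 ratio of HMB over control (vertical axis) for each tested member as reported (black), under another processing or test (blue) and with 1 array left out (orange), with bars for the SE of the fit and open circles where adjusted *P* was above 0.05. *CHRNA1* stays between −0.85 and −0.61, *CHRNE* between 0.09 and 0.19, and *DOK7* between −0.04 and 0.07.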

How the data were processed

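RNA of ESC from HMB-treated and control cultures was measured on 4 two-colour Agilent horse arrays, which were 4 biological replicates per the labels. The authors extracted the spots with Feature Extraction, in version 10.10.1.1 per the file headers, another version than the methods name, and deposited log10 ratios of Cy5 over Cy3 after its lowess dye normalisation. The deposited files also hold the processed intensity of each channel, a signal with background subtracted. They hold marks of 0 or 1 as well, which the authors' software set for spots that were uneven, far from their replicate spots or well above background. The ratios of the deposited value table differed from those of the files by at most 0. Columns of other samples numbered 0.

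Ratios were multiplied by 3.32 to give log2 values, spots marked uneven or far from replicates (11 to 32 of 43803 per array) were left out, and spots of 1 probe were averaged. The filter asked for 1 channel, the same on each of the 4 arrays, clearly brighter than background, and for values from 3 or more arrays. It left out 16219 probes. Spots well above background made up 63.5 to 66.9 % in Cy3 and 64.2 to 66.5 % in Cy5, and the median signal over background was 3.16 to 3.82 and 4.68 to 5.85. The mean ratio was tested against 0 with limma 3.58.1 in R 4.3.3, with Benjamini-Hochberg adjustment over 27384 probes and a threshold of 0.05. The script was tested on simulated data, where 166 of 200 changed probes were recovered beside 6 wrong calls. The *CHRNG* minus *CHRNE* difference was tested with an exact two-sided sign-flip permutation over arrays. Tables were made with Python 3.11.15, numpy 2.4.6, pandas 2.3.3, scipy 1.17.1 and matplotlib 3.10.9.

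Alternatives were normexp (offset 50) with loess, median centring without lowess, an ordinary t-test of each probe, an intensity trend with robust prior, separate channels with and without the array as a block, other filters, marked spots kept, the deposited values in place of the files, a minimum of 1.3-fold, the mean of a gene's probes, and each replicate left out. The files named a gene for 24960 probes, a RefSeq gene list of a later horse assembly, used for names only, named 2121 more, and 16522 had no name. Any called gene of a list could be named, with values for the 4 of largest absolute mean in each list and direction, ties included, and *ACTC1* was given values after they were seen. Also named are the 5 genes nearest in profile to *CHRNA1* and *CHRNG*. The members and lists were chosen with earlier results of these data known. Colts per array were not given, so no pairing by colt was made.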

Additional observations from a re-analysis of the deposited data

Results flagged for a closer look

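In 47 groups of 4 array values, a value was marked when its gap to the next was too large for its range by Dixon's test, which chance alone gives in about 1 in 20 groups, and 5 met it. *CHRNG* had a log2 ratio of −0.11 on array 1, far from −0.69 to −0.66 on the others. The median of the receptor subunits of muscle, in which *CHRNG* is the middle gene on that array, was −0.11 on array 1 and −0.69 to −0.66 on the others. The median of the fibroblast markers was 0.33 on array 1 against −0.07 to −0.06. The median of the dystroglycan scaffold was 0.07 on array 4 against −0.06 to −0.04. The *CHRNE* control signal was 119.46 on array 1 against 84.93 to 87.15. What set these arrays apart was not tested.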

How the results depend on the processing

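*CHRNA1*, *CHRND* and *MUSK* kept their direction and call in 14 of 15 alternatives, all but the t-test. Calls among all tested probes (6257) numbered 768 with an ordinary t-test, 2226 with separate channels without pairing, 3690 with no filter on dim probes, 3863 with a minimum of 1.3-fold, and 2573 to 4957 with a replicate left out. Calls among the members (5) numbered 0, 3 and 3 under the first 3 of these, and 3 to 6 with a replicate left out. Calls among the list genes (34) numbered 1, 18 and 8, and 13 to 32. *CHRNG* minus *CHRNE* (−0.68) was −0.85 to −0.58 with a replicate left out and −0.47 with median centring without lowess. Signs turned for *DOK7* (0.07 with median centring without lowess, −0.03 to 0.01 with a replicate left out), and with median centring without lowess for *CTNNB1* (0.17), *ACTC1* (0.69, and 0.01 with normexp), *MYL11* (0.21) and *TIMP2* (0.16). The cause was not tested. With the array as a block, whose consensus correlation was 0.55, calls numbered 7109 and the 5 member calls stayed. Dim probes such as *CHRNB1*, *MUSK* and the agrin probe rest on signals not far above background. Dyes were not exchanged, and 4 arrays of 1 slide cannot show variation among slides.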
